A study of Mus musculus with 12 samples.

Results

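Dorsal root ganglia (DRG) hold the cell bodies of the sensory neurons for touch, temperature, itch and pain, together with satellite glia, Schwann cells, blood vessels and resident immune cells. The comparison described here sets ganglia taken at zeitgeber time 14 (ZT14) against ganglia taken at ZT2, where ZT counts hours from lights on. Its members are the 3 libraries labelled ZT14 and the 3 labelled ZT2, 6 of the 12 libraries in the series, described across the 25809 of 38594 genes that passed a filter on low counts. The tissue was DRG of lumbar levels L1 to L6 from male mice of the strain written C57BL6J in the labels, 6 to 12 weeks old and named naive in the library titles, so both groups share every condition the labels give except the hour of collection. The other 6 libraries, from ZT8 and ZT20, entered the same model and serve as the second pair of opposite times. The hours of light in the animal room, the number of mice behind a library and whether replicates came from separate mice were absent from the labels read here, so the p-values measure the spread between these libraries, part of which may be technical. Libraries were numbered 3 to 5 at ZT2 and 11 to 13 at ZT14, and an order of collection or preparation that followed these numbers cannot be told apart from the hour.

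Most mammalian cells keep time with a feedback loop of transcription factors. BMAL1, encoded by Arntl, pairs with CLOCK on DNA elements called E-boxes and switches on the Per, Cry and Nr1d genes. PER and CRY proteins then block the pair, while the NR1D receptors repress Arntl through elements called ROREs. Adrenal glucocorticoids, which swing daily and peak near the start of activity in nocturnal mice, carry the hour to peripheral tissues as well.

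Each of the 6 libraries held between about 91500000 and 106900000 estimated counts. These values are on a scale of coverage rather than reads, and they correspond to roughly 49100000 to 57100000 reads. Neuronal markers that define the tissue were present in all 6 libraries: Tubb3, a neuronal tubulin, lay between 3478 and 3789 CPM (counts scaled to a library of 1000000), and Isl1, a sensory neuron transcription factor, between 97.5 and 108.5 CPM. Among markers of the spinal cord, Mog, an oligodendrocyte gene, reached at most 0.113 CPM. Skeletal muscle borders the ganglia, and the summed level of its 24 markers varied within each time. It was 658.3, 683.2 and 270.3 CPM in ZT2 replicates 1 to 3, against 814.1, 392.4 and 464.9 CPM in ZT14 replicates 1 to 3. The summed level of the 16 erythroid markers was 4207, 3146 and 1850 CPM at ZT2 and 4046, 4257 and 3908 CPM at ZT14, so ZT2 replicate 3 held least of both.

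From ZT2 to ZT14, 12 of 25809 genes changed at an adjusted p under 0.05 in edgeR's quasi-likelihood test, 0.0465% of those tested. Of these, 7 rose (0.0271%) and 5 fell (0.0194%). Without adjustment, 1339 genes (5.19%) had a p under 0.05, 748 of them higher at ZT14 (2.9%) and 591 lower (2.29%), and a share of 5% is what uniform p-values would give. The 3 values of each time did not overlap for 2882 genes (11.2%), with ZT14 above for 5.79% and below for 5.38%. All genes together had a median log2 fold change of 0.00. The count was 3 without ZT2 replicate 1, 4 without ZT2 replicate 2 or ZT14 replicate 2, 5 without ZT2 replicate 3 or ZT14 replicate 3, and 7 without ZT8 replicate 1 or ZT20 replicate 3. Values rescaled to approximate reads gave 14 genes that were higher at ZT14 and 5 that were lower. With the library richest in muscle RNA removed from each of the 4 times, edgeR called 0 genes, with a lowest adjusted p of 0.0664 and 1480 genes at an unadjusted p under 0.05 over the 8 libraries left. The log2 fold changes of the 12 genes were then 0.825 to 1.10 times those of the full fit, with Fabp7 at -1.44, Fmo2 at 1.52 and Arntl at -1.24. With the muscle score of each library as a covariate 12 genes passed, 7 higher and 5 lower, 10 of them among the first 12. Gene by gene, Fabp7, Fmo2 and Arntl passed whichever library was left out. Khk missed the threshold without ZT2 replicate 1 or 2 or ZT14 replicate 3 (edgeR adjusted p 0.0812 to 0.0934), and Slco1a4 without any of these or ZT14 replicate 2 (0.0517 to 0.0646). Per2 and Fam107a missed it without any ZT2 library, ZT14 replicate 2 or 3, or ZT20 replicate 3, and Fam107a also without ZT8 replicate 1 (0.053 to 0.126 and 0.0538 to 0.140). Dbi missed it without any ZT2 library, ZT8 replicate 1, or ZT14 replicate 2 or 3 (0.0538 to 0.0934). Spg21 kept its call only without ZT8 replicate 3 or any ZT20 library (otherwise 0.0557 to 0.122), Sat1 only without ZT14 replicate 1 or 3 (otherwise 0.0516 to 0.174), and Slc1a5 and Galnt16 in no such fit.

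**Figure D1:**
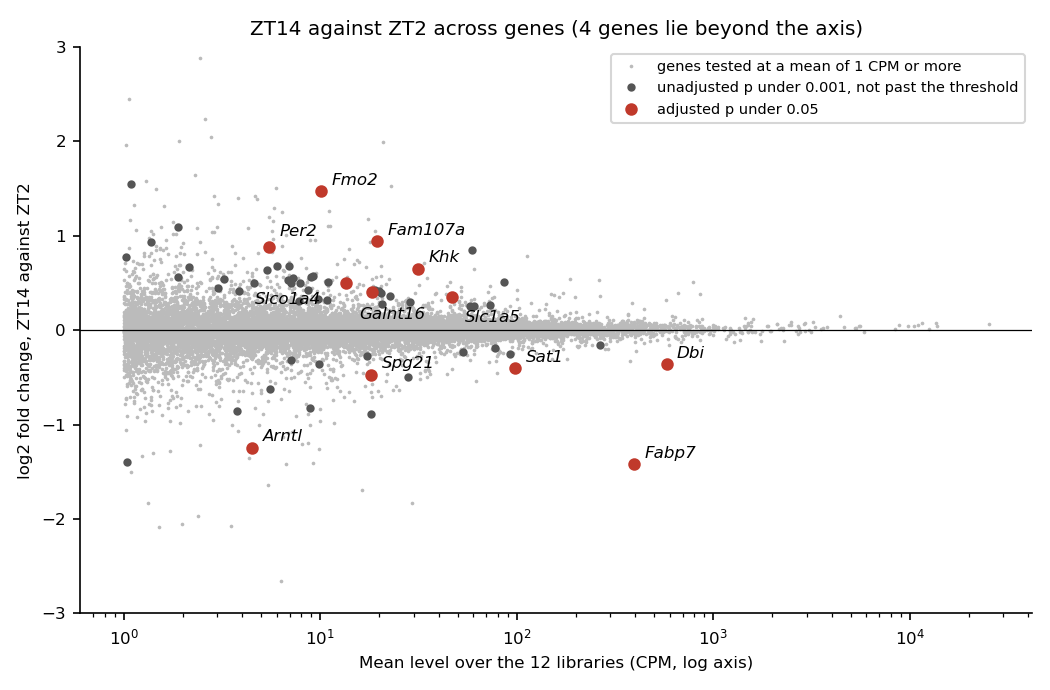
Each point is a gene with a mean of at least 1 CPM over the 12 libraries, with its mean level on a log axis and its log2 fold change for ZT14 against ZT2. The 12 genes past the threshold are named, dark points had an unadjusted p under 0.001 without passing, and 4 genes beyond a log2 value of 3 in either direction, none past the threshold, are not drawn.

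The core loop supplied 2 of the 12 genes. Arntl, the gene for BMAL1, stood at 6.404, 6.05 and 6.27 CPM in the ZT2 libraries and at 2.52, 2.58 and 2.80 CPM in the ZT14 libraries. The groups lay far apart, and Arntl fell by 1.24 ± 0.11 on the log2 scale (SE, edgeR adjusted p = 0.00186). Per2, whose protein inhibits the activators, stood at 4.66, 4.09 and 4.74 CPM at ZT2 and at 7.56, 8.25 and 9.10 CPM at ZT14. Every ZT14 library was above every ZT2 library, and Per2 rose by 0.88 ± 0.11 on the log2 scale (adjusted p = 0.0209). In GRCm38 Arntl (ENSMUSG00000055116.8) lies at chr7:113207465-113314126 on the plus strand and Per2 at chr1:91415982-91459324 on the minus strand.

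Promoter windows from RefSeq (GRCm38.p6, 250 bases before to 50 after each annotated start) were searched on both strands for the E-box CACGTG, a variant called E-prime-box CACGTT, the RORE, and the glucocorticoid response element (GRE). Of 32851 windows, 7.15% held an E-box, 4.68% an E-prime-box, 0.384% a RORE and 0.475% a GRE. Windows existed for 10 of the 12 genes past the threshold and for 18 of 21 clock genes. An E-box was found for 5 of the 18 clock genes (Bhlhe41, Ciart, Cry1, Per1 and Tef) and an E-prime-box for 4 (Cry1, Cry2, Nr1d1 and Rorb), and no window was in the table for Per2, Slc1a5 or Bhlhe40. Of the 10 genes past the threshold, Khk held an E-box, Fmo2, which rose, and Dbi, which fell, an E-prime-box, Arntl a RORE and Fam107a a GRE, while Fabp7, Galnt16, Sat1, Slco1a4 and Spg21 held none of the 4 motifs. Among the clock genes 9 of 18 held none, Dbp, Per3 and Nr1d2 included. The shares over all windows are per window, and a gene can have several windows. A match is a string of letters and not a measured binding site. Shown for the clock are the RORE match after a start of Arntl (chr7:113207529-113207556, plus strand, within an annotated Arntl exon) and the 3 E-boxes before the start of Ciart (chr3:95882257-95882354, minus strand, outside annotated exons), with the motifs in capitals.
Arntl: gaaggcagAAAGTAGGTCAgggacggag
Ciart: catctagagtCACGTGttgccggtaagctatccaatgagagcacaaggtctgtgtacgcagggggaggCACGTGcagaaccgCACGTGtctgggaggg

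The repressor arm of the clock and its direct outputs were higher at ZT14 for most members, with 11 of 12 above 0 and a median log2 fold change of 0.38, against 12879 of 25809 genes above 0 over all genes tested. Besides Per2, which passed, 8 further members had an unadjusted p under 0.05 and were higher at ZT14, against 2.9% of all genes. Per3, a second period gene, stood at 5.11, 6.24 and 5.02 CPM at ZT2 and 9.19, 8.70 and 8.27 CPM at ZT14 (log2 0.68 ± 0.11, edgeR adjusted p = 0.0779). Dbp, an output activator of the PAR bZIP family, had 10.4, 14.7 and 9.57 CPM at ZT2 and 33.6, 20.6 and 17.7 CPM at ZT14. Its ZT14 replicate 1 stood well above the others. Ciart, a repressor of the activator pair, showed the same spread, with 4.32, 4.35 and 4.27 CPM at ZT2 against 8.86, 5.92 and 5.90 CPM at ZT14. Hlf and Tef, relatives of Dbp, had log2 values of 0.50 ± 0.11 and 0.26 ± 0.05, Nr1d2, which encodes a repressor of Arntl, had 0.26 ± 0.07, Bhlhe40 0.28 ± 0.07 and Per1 0.47 ± 0.18. The exception was Nr1d1, the other receptor of that pair, at 26.6, 31.8 and 22.5 CPM at ZT2 and 34.5, 23.6 and 21.8 CPM at ZT14, where the groups overlapped and the log2 value was -0.02 ± 0.18.

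The activator arm and the genes in phase with it was split: 3 of 8 measured members were above 0, and the median was -0.08. After Arntl, the members at an unadjusted p under 0.05 were Npas2, a substitute for CLOCK (log2 -0.25 ± 0.09), Nfil3, a repressor that competes with DBP (-0.19 ± 0.07), and Cry1, with the opposite sign (0.26 ± 0.06). Cry1, which encodes the late-acting repressor, had 10.8, 9.97 and 10.9 CPM at ZT2 and 13.1, 12.2 and 12.5 CPM at ZT14 without overlap. Clock itself had 17.2, 16.0 and 21.2 CPM at ZT2 and 15.6, 17.7 and 16.8 CPM at ZT14, with a log2 value of -0.12 ± 0.10. Among 13 kinases and ubiquitin ligases that modify clock proteins, the median was 0.00 and only Usp2, a deubiquitinase that is itself a clock output, had an unadjusted p under 0.05. It stood at 8.20, 6.71 and 7.61 CPM at ZT2 and 9.88, 9.62 and 10.6 CPM at ZT14.

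**Figure D2:**
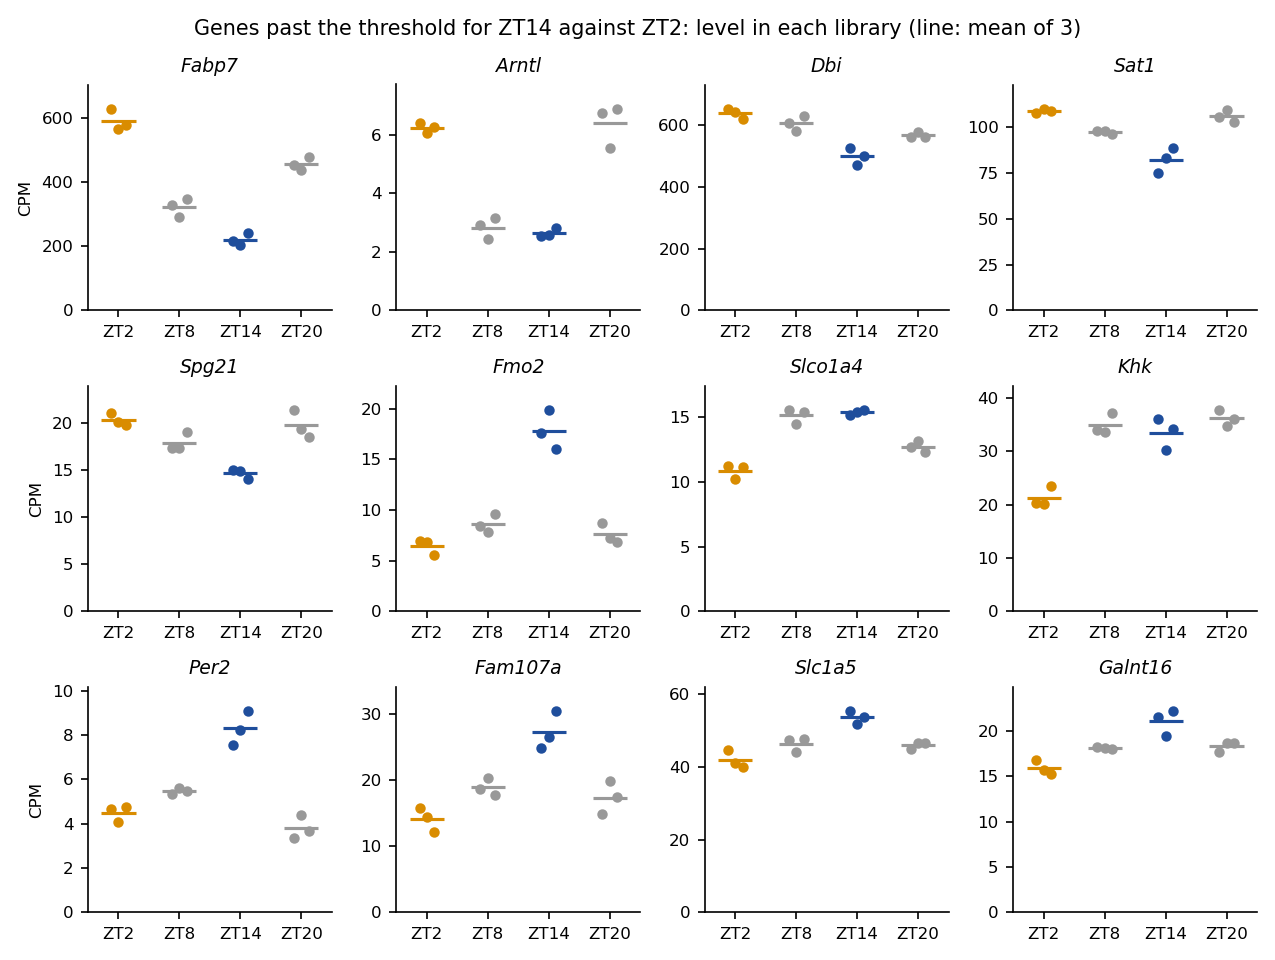
Each panel shows 1 of the 12 genes past the threshold for ZT14 against ZT2, with CPM on a vertical axis from 0, a point for each library and a line for the mean of 3. ZT2 (orange) and ZT14 (blue) do not overlap in any panel, and for 9 of the 12 genes the means at ZT8 and ZT20 (grey) both lie between those of ZT2 and ZT14.

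Fabp7, which encodes the brain-type fatty acid-binding protein of satellite glia and other glia, had the lowest p of the comparison. The gene (ENSMUSG00000019874.11) lies at chr10:57784881-57788450 on the plus strand. Its level was 628, 566 and 577 CPM in the ZT2 libraries and 217, 203 and 242 CPM in the ZT14 libraries. The lowest ZT2 library exceeded the highest ZT14 library by a wide margin, and Fabp7 fell by 1.42 ± 0.08 on the log2 scale (edgeR adjusted p = 2.9e-05), a 2.68-fold higher level at ZT2. Dbi, the acyl-CoA-binding protein, fell by 0.36 ± 0.05, from 654, 644 and 622 CPM to 528, 472 and 500 CPM (adjusted p = 0.0237). These were the only 2 of 14 measured genes of the fatty acid-binding and acyl-CoA-binding list to pass. Fabp5 and Fabp3, relatives of Fabp7 in the same list, had log2 values of 0.03 ± 0.05 and 0.05 ± 0.08. Pmp2, the fatty acid-binding protein of myelin, lay on the other side of 0, at 45.3, 50.4 and 38.1 CPM at ZT2 and 52.6, 65.5 and 60.8 CPM at ZT14 (0.42 ± 0.13, unadjusted p = 0.00935).

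Of the 21 satellite glia markers measured, Fabp7 was the 1 that passed. The list had a median of -0.02 with 10 of 21 above 0, and its summed level was 6370, 6273 and 6321 CPM at ZT2 and 7308, 5631 and 6568 CPM at ZT14. Kcnj10, the potassium channel of these cells, had a log2 value of -0.08 ± 0.09, and Sox10, a glial transcription factor, 0.07 with an unadjusted p of 0.732. In bulk tissue, fewer cells of a type and less RNA per cell cannot be told apart. Glul, glutamine synthetase, was at 357, 335 and 344 CPM at ZT2 and 402, 378 and 385 CPM at ZT14, with no overlap (0.17 ± 0.04, unadjusted p = 0.00113). On the lower side at an unadjusted p under 0.05 were Gja1, a gap junction gene (-0.20 ± 0.07), Entpd2, an ectonucleotidase (-0.23 ± 0.09), and Ptn, a growth factor (-0.11 ± 0.05), while Sox2 was higher (0.26 ± 0.12).

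Fmo2, a flavin-containing monooxygenase that oxidises drugs and other foreign compounds, had the largest rise among the 12 genes and lies at chr1:162874317-162898726 on the minus strand (ENSMUSG00000040170.13). It stood at 6.98, 6.80 and 5.52 CPM at ZT2 and at 17.6, 19.9 and 16.0 CPM at ZT14. All ZT14 libraries were more than double any ZT2 library, and the change was 1.47 ± 0.13 on the log2 scale (edgeR adjusted p = 0.00162). Fmo1 of the same family was at 46.3, 42.7 and 42.3 CPM at ZT2 and 59.1, 57.7 and 53.8 CPM at ZT14 (0.38 ± 0.09, adjusted p = 0.410), and the remaining 3 measured members had an unadjusted p of 0.0533 or more. Khk, ketohexokinase, which commits fructose to metabolism, had 20.2, 20.2 and 23.5 CPM at ZT2 and 36.0, 30.3 and 34.2 CPM at ZT14, and it rose by 0.65 ± 0.08 (adjusted p = 0.0209). Emilin1, an elastic fibre gene that ends at 30921277 on chromosome 5 shortly before Khk starts at 30921431 on the same strand, had 6.10, 7.00 and 5.79 CPM at ZT2 and 3.81, 3.71 and 2.91 CPM at ZT14 (-0.86 ± 0.17, adjusted p = 0.209). How reads near this boundary were assigned was not tested. The other 20 of 21 measured fructose and glucose genes did not pass, and the list had a median of 0.04.

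An E-box stood before the RefSeq start of Khk (chr5:30921477-30921504, plus strand, within an annotated exon). An E-prime-box stood before a RefSeq start of Fmo2 (chr1:162898499-162898526, minus strand, within an annotated exon). By the gene positions given above, which are from GENCODE, both stretches lie inside the gene, after the starts at 30921431 (Khk) and 162898726 (Fmo2). These stretches are shown with the motifs in capitals because they hold the matches nearest a RefSeq start among the genes that rose.
Khk: gcgttccccgtCACGTGacaccgttaat
Fmo2: actttgtaaaCACGTTtacaatgaaggt

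A further 4 metabolic and trafficking genes passed with smaller changes. Sat1, the acetyltransferase that starts polyamine breakdown, was at 107.6, 109.9 and 108.8 CPM at ZT2 and 74.6, 83.0 and 88.7 CPM at ZT14, and it fell by 0.41 ± 0.05 (edgeR adjusted p = 0.0268). The other 13 polyamine genes had log2 values no further from 0 than 0.12 and unadjusted p-values of 0.177 or more. Slc1a5, a glutamine and neutral amino acid exchanger, was at 44.6, 41.0 and 39.9 CPM at ZT2 and 55.4, 51.8 and 53.5 CPM at ZT14, and it rose by 0.36 ± 0.05 (adjusted p = 0.0462). Spg21, which encodes the endosomal protein maspardin, was at 21.1, 20.1 and 19.8 CPM at ZT2 and 15, 14.9 and 14.0 CPM at ZT14, and it fell by 0.47 ± 0.06 (adjusted p = 0.0268). Galnt16, an enzyme that starts mucin-type glycans on proteins, was at 16.8, 15.7 and 15.3 CPM at ZT2 and 21.6, 19.5 and 22.2 CPM at ZT14, and it rose by 0.41 ± 0.06 (adjusted p = 0.0462).

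Among glucocorticoid-responsive genes 21 of 24 measured members were above 0, with a median log2 fold change of 0.23. An unadjusted p under 0.05 was reached by 12 of them, all higher at ZT14, against 2.9% of all genes. Fam107a, an actin-associated gene induced by stress and glucocorticoids, was the member that passed: it stood at 15.8, 14.5 and 12.2 CPM at ZT2 and 24.9, 26.5 and 30.5 CPM at ZT14, and it rose by 0.95 ± 0.12 (edgeR adjusted p = 0.0237). Mt2, a metallothionein, had 97.1, 91.8 and 65.1 CPM at ZT2 and 118.5, 149.9 and 168.8 CPM at ZT14 (0.78 ± 0.20, adjusted p = 0.501). Sgk1, a kinase induced by the hormone, had 30.9, 27.9 and 23.1 CPM at ZT2 and 32.6, 34.1 and 41.1 CPM at ZT14 (0.40 ± 0.12). Fkbp5, a receptor co-chaperone, had 33.0, 28.1 and 30.7 CPM at ZT2 and 33.9, 36.6 and 39.7 CPM at ZT14 (0.26 ± 0.08). Tsc22d3, also called GILZ, had a log2 value of 0.18 ± 0.07, Klf15 0.41 ± 0.11, Zbtb16 0.75 ± 0.31 and Mt1 0.37 ± 0.09, all with unadjusted p-values under 0.05. Plin4, a lipid droplet protein, had the largest log2 value of the list, at 0.358, 0.389 and 0.265 CPM at ZT2 and 0.916, 0.841 and 1.15 CPM at ZT14 (1.52 ± 0.27, adjusted p = 0.145).

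The same ZT14 library was the highest for most of these genes. ZT14 replicate 3 was the highest of the 3 for 20 of the 24 glucocorticoid-responsive genes and for 11 of the 12 at an unadjusted p under 0.05, against 7564 of 25809 over all genes tested. The summed level of the list was 963.6, 931.7 and 840.9 CPM at ZT2 and 1012, 1063 and 1206 CPM at ZT14, so no ZT14 library overlapped the ZT2 range. Without ZT14 replicate 3 the median was 0.20, and without ZT2 replicate 3, the lowest of its time, 0.19. The list shares Per1 with the clock's repressor arm and 6 genes with the list of clock outputs of many tissues. Of the list, only Fam107a and Per1 were among the genes looked at for a GRE, so the other members have no result. A GRE was found in 0.475% of all windows and in 0 of the 18 clock genes, Per1 included. The GRE of Fam107a lay before a start (chr14:8309862-8309921, minus strand, outside annotated exons), in overlapping windows of this gene, and it is shown in capitals.
Fam107a: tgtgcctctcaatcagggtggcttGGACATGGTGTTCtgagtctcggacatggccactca

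Clock outputs shared by many tissues followed the same direction, with 17 of 22 members above 0, a median of 0.21 and 12 at an unadjusted p under 0.05, all higher, against 2.9% of all genes. Of these 12, Fkbp5, Tsc22d3, Sgk1 and Klf15 were already counted among the glucocorticoid-responsive genes, so the 2 lists are not independent. Fmo2 was the member that passed. Tns2, a focal adhesion protein, had 27.1, 24.3 and 24.7 CPM at ZT2 and 30.4, 30.5 and 33.0 CPM at ZT14 (0.30 ± 0.05, edgeR adjusted p = 0.135). Cys1, a cilium protein, had 7.71, 7.88 and 7.95 CPM at ZT2 and 10.9, 10.2 and 10.5 CPM at ZT14 (0.42 ± 0.11). Por, the electron donor of cytochrome P450 enzymes, had 58.3, 58.5 and 53.7 CPM at ZT2 and 69.7, 64.8 and 62.6 CPM at ZT14 (0.21 ± 0.07). In all 3 the groups did not overlap and the adjusted threshold was missed.

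**Figure D3:**
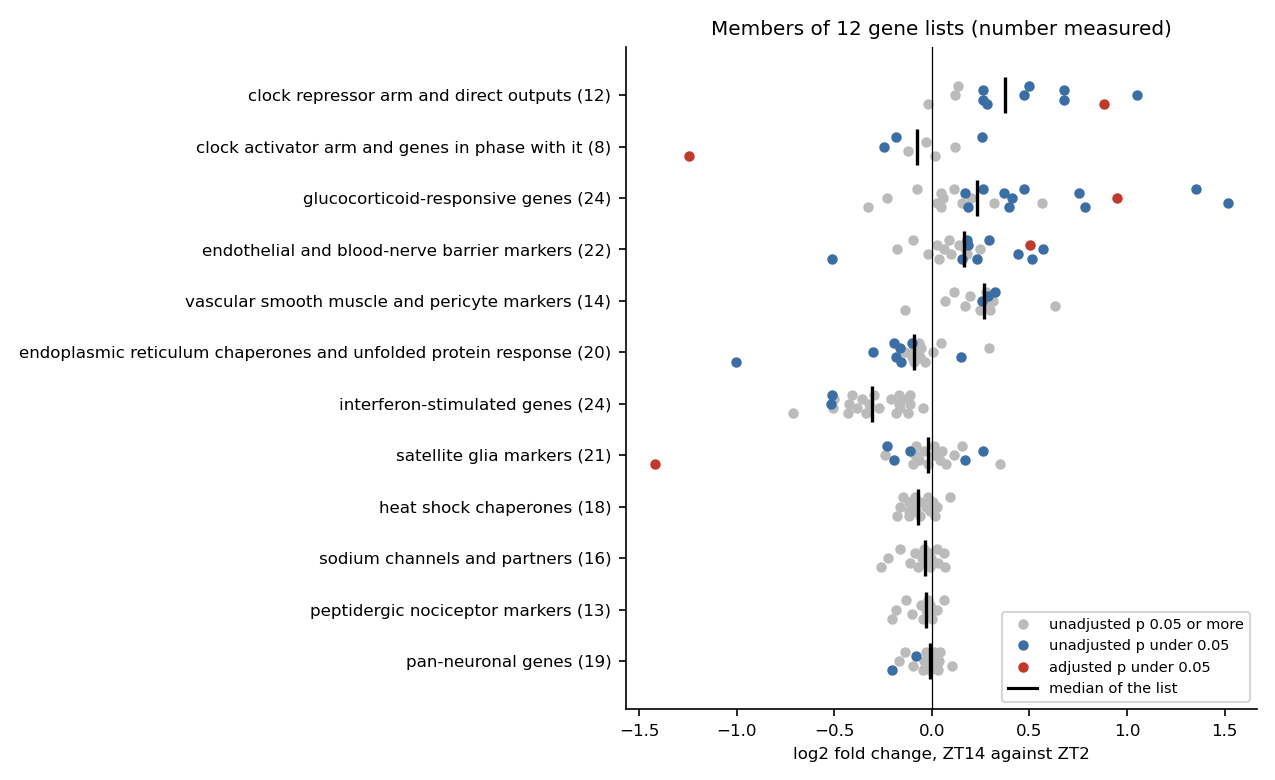
Members of 12 gene lists are placed by their log2 fold change for ZT14 against ZT2, with the number of measured members in brackets and the median of each list as a bar. Members of the clock repressor and glucocorticoid lists lie mostly to the right of 0, with medians of 0.38 and 0.23, all 24 interferon-stimulated genes lie to the left, and the neuronal lists cluster near 0.

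Vessel genes lay mostly above 0. Of 22 markers of endothelium and the blood-nerve barrier, 18 were above 0, the median was 0.16, and 9 were higher and 1 lower at an unadjusted p under 0.05, against 2.9% and 2.29% of all genes. The values of the times did not overlap for 11 members, all higher at ZT14, against 5.79% of all genes. Slco1a4, the barrier organic anion transporter, passed: it was at 11.2, 10.3 and 11.2 CPM at ZT2 and 15.2, 15.5 and 15.6 CPM at ZT14, and it rose by 0.50 ± 0.05 (edgeR adjusted p = 0.00751). Ly6c1, a surface protein of endothelium, had 63.2, 76.2 and 67.6 CPM at ZT2 and 100.9, 91.1 and 103.7 CPM at ZT14 (0.52 ± 0.11, adjusted p = 0.339). Mfsd2a, a lipid transporter of barrier vessels, had 34.98, 30.9 and 32.6 CPM at ZT2 and 41.2, 38.7 and 40.6 CPM at ZT14 (0.29 ± 0.07). The glucose transporter Slc2a1 (0.19 ± 0.05), the amino acid transporter Slc7a5 (0.23 ± 0.06), the TGF-beta co-receptor Eng (0.44 ± 0.12) and Vwf (0.57 ± 0.20) also did not overlap between the times. The receptor genes Kdr (0.18 ± 0.08) and Tie1 (0.16 ± 0.07) were the other members higher at an unadjusted p under 0.05. Pecam1, an adhesion gene, had 0.17 ± 0.09 and Cldn5, a tight junction gene, -0.18 ± 0.09, both with overlap, and the 1 marker with an unadjusted p under 0.05 on the lower side was the thyroid hormone transporter Slco1c1 (-0.51 ± 0.23).

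Contractile and pericyte markers had 13 of 14 members above 0 and a median of 0.27, and 0 passed. Pdgfrb, the pericyte receptor, had 16.0, 14.4 and 15.8 CPM at ZT2 and 18.7, 17.9 and 18.7 CPM at ZT14 (0.26 ± 0.06, unadjusted p = 0.00162), and Notch3 had 0.29 ± 0.08. ZT14 replicate 1, the library of its time with most muscle markers, was the highest of its time for 10 of the 14, and without it the median was 0.11. The 14 adipocyte markers gave a median of 0.73 that moved likewise, to 0.14 without that library. Cfd, the adipocyte protease adipsin, shows the pattern: 3.91, 2.82 and 2.17 CPM at ZT2 and 12.9, 4.81 and 5.59 CPM at ZT14. The defining adipocyte genes were low throughout, with Adipoq at 0.455 to 2.18 CPM and Plin1 at 0.199 to 0.977 CPM over the 6 libraries. The part of muscle and fat RNA in these lists was not tested.

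Chaperones of the endoplasmic reticulum and genes of the unfolded protein response lay slightly below 0 at ZT14, with 16 of 20 below 0, a median of -0.09 and 0 past the threshold. At an unadjusted p under 0.05, 7 were lower and 1 was higher, against 2.29% and 2.9% of all genes. Hsp90b1, the chaperone GRP94, had 284, 283 and 292 CPM at ZT2 and 250.2, 254 and 265 CPM at ZT14 (-0.16 ± 0.04, edgeR adjusted p = 0.336). Pdia4 and Pdia6, disulphide isomerases, had -0.20 ± 0.06 and -0.18 ± 0.06, and Hspa5, the chaperone BiP, had 190.8, 181.1 and 192.4 CPM at ZT2 against 165, 158.1 and 180.7 CPM at ZT14 (-0.16 ± 0.07). For each of these 4 the groups did not overlap. Herpud1, a component of protein degradation at this membrane that also stands among the clock outputs, was the higher one (0.15 ± 0.07). Cytosolic heat shock chaperones had a median of -0.07 with 4 of 18 above 0 and 0 at an unadjusted p under 0.05, and the 20 immediate early genes, which mark recent cell activity, had a median of -0.01 and likewise 0.

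The list of interferon-stimulated genes had log2 values below 0 in 24 of 24 cases, with a median of -0.31, yet 0 passed. Ifitm1, an interferon-induced gene that the list does not hold, was higher at ZT14 (0.57 ± 0.10, edgeR adjusted p = 0.153). Of the 24, 2 had an unadjusted p under 0.05, both lower at ZT14 (8.33%, against 2.29% of all genes). The times did not overlap for 4, all lower at ZT14, against 5.38% of all genes. Irf7, a master regulator of the family, had 12.5, 18.0 and 11.1 CPM at ZT2 and 9.76, 11.3 and 7.97 CPM at ZT14 (-0.52 ± 0.22). Rtp4 had 9.82, 15.2 and 11.3 CPM at ZT2 and 9.16, 9.10 and 7.17 CPM at ZT14 (-0.51 ± 0.21). The high library was the same throughout: ZT2 replicate 2 was the highest of its time for 22 of the 24, against 8924 of 25809 over all genes. The summed level of the list was 449.6, 574.8 and 395.7 CPM at ZT2 and 386.5, 402.6 and 384.7 CPM at ZT14, with overlap between the times. Without ZT2 replicate 2 the median was -0.12.

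Neuronal genes gave 0 calls. Across 11 lists of channels, peptides, receptors and neuron markers, 201 genes were listed, 199 were measured, 75 lay above 0 and the median was -0.02. An unadjusted p under 0.05 was reached by 2 on the higher and 8 on the lower side, 5.03% of those measured against 5.19% over all genes. The 95% interval of the change stayed within 1.5-fold for 169 of the 199, against 54.5% of all genes tested and 9167 of 9547 genes at a mean of 10 CPM or more.

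The voltage-gated sodium channels of nociceptors illustrate this. Scn10a (Nav1.8) had 150.6, 142.9 and 161.9 CPM at ZT2 and 161.4, 153.3 and 161.0 CPM at ZT14 (log2 0.06, 95% interval -0.11 to 0.24). Scn9a (Nav1.7) had 77.9, 78.7 and 84.2 CPM at ZT2 and 67.3, 79.4 and 76.4 CPM at ZT14 (-0.11 ± 0.08), and Scn11a (Nav1.9) had -0.01 ± 0.07. The ranges overlapped for each of the 3. Among sensors, the heat-gated channel gene Trpv1 had 113.7, 134.3 and 145.9 CPM at ZT2 and 109.3, 127 and 110.5 CPM at ZT14 (-0.18 ± 0.09, unadjusted p = 0.0566), Trpa1, the irritant sensor, had -0.08 ± 0.12, and P2rx3, an ATP-gated channel, had -0.02 ± 0.10.

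The 10 neuronal members at an unadjusted p under 0.05 were spread over peptides and receptors (Calcb, Adcyap1, Cnr1, Lpar1 and Il31ra), channel lists (Kcnk1, Cacna1b and Tmem120a) and neuronal RNA-binding proteins (Elavl3 and Elavl4). Calcb, which encodes beta-CGRP, had 222.1, 173.8 and 242.3 CPM at ZT2 and 178.4, 172.8 and 164.2 CPM at ZT14 (-0.31 ± 0.13), with overlap through ZT2 replicate 2. Calca, which encodes alpha-CGRP, had 2762, 2877 and 2760 CPM at ZT2 and 2714, 2731 and 2710 CPM at ZT14 (-0.04 ± 0.08). Adcyap1, the gene for the peptide PACAP, had -0.18 ± 0.07 and Tac1, the gene for substance P, -0.10 ± 0.08. Lpar1, a lysophosphatidic acid receptor that Schwann cells also express, had the lowest p of these lists, with 86.2, 85.3 and 88.8 CPM at ZT2 and 75.3, 75.1 and 77.6 CPM at ZT14 and no overlap (-0.19 ± 0.04, edgeR adjusted p = 0.261). Cnr1, the cannabinoid receptor, had -0.16 ± 0.07, Cacna1b, the N-type calcium channel, -0.16 ± 0.07, Elavl4, a neuronal RNA-binding protein, -0.20 ± 0.09, and Kcnk1, a leak potassium channel, 0.16 ± 0.05. Il31ra, an itch receptor, had the largest log2 value among them, -1.70 ± 0.68, and it rested on 1 library: 9.01, 78.9 and 13.4 CPM at ZT2 against 11.1, 8.51 and 11.6 CPM at ZT14.

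**Figure D4:**
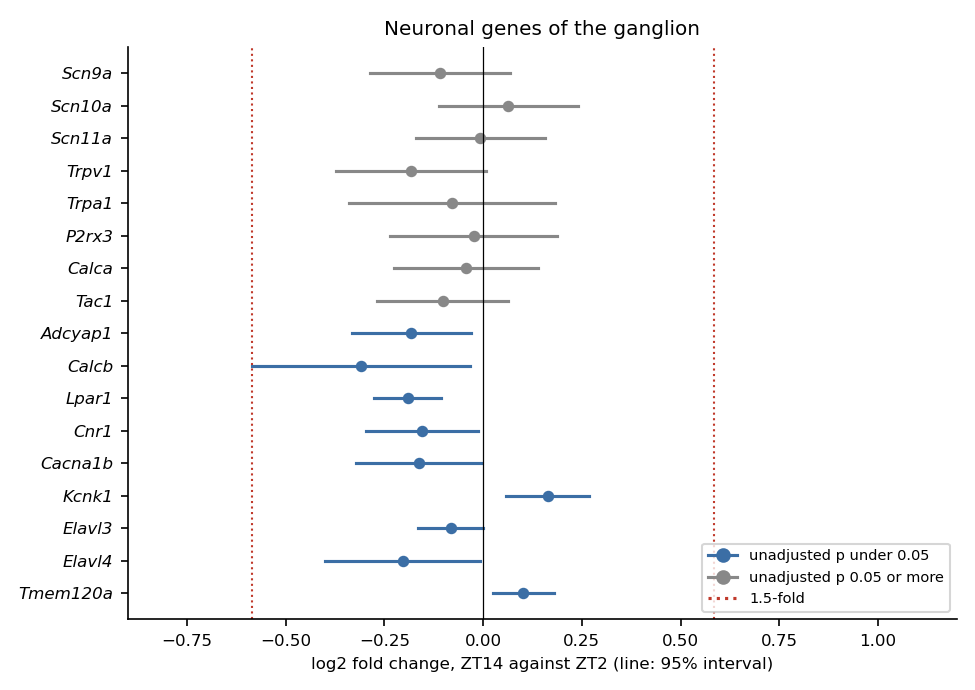
Points give the log2 fold change for ZT14 against ZT2 of 17 neuronal genes, the 8 nociceptor genes and 9 of the 10 at an unadjusted p under 0.05 (Il31ra, at -1.70, is not drawn), lines the 95% interval of the fit, and dotted lines a change of 1.5-fold. The 8 nociceptor genes at the top include 0 in their intervals, and the genes in blue, which had an unadjusted p under 0.05, have points within about 0.31 of 0.

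Besides the 12 genes past the threshold, 57 had an unadjusted p under 0.001, 38 higher at ZT14 and 19 lower, members of the lists among them. Plekhg2, a guanine nucleotide exchange factor, had 18.2, 15.8 and 17.9 CPM at ZT2 and 23.6, 23.1 and 22.7 CPM at ZT14 (0.42 ± 0.06, edgeR adjusted p = 0.0513). Tead3, a transcription factor of the Hippo pathway, had 4.67, 4.09 and 3.78 CPM at ZT2 and 6.86, 6.04 and 6.65 CPM at ZT14 (0.64 ± 0.09, adjusted p = 0.0513). Cd163, the haemoglobin scavenger receptor of macrophages, had 1.51, 1.22 and 1.08 CPM at ZT2 and 2.199, 3.17 and 2.75 CPM at ZT14 (1.09 ± 0.17, adjusted p = 0.0733). The groups did not overlap for these 3, nor for Clcn2, a chloride channel, at 20.3, 20.1 and 20.4 CPM against 25.5, 26.4 and 26.4 CPM (0.37 ± 0.06), or Fstl3, an activin-binding protein, at 17.4, 18.4 and 18.8 CPM against 23.7, 23.9 and 23.9 CPM (0.39 ± 0.06). Rgcc, a cell cycle regulator of vessels, had 0.27 ± 0.05, Sertad1, a transcriptional co-regulator, 0.43 ± 0.08, Ifitm1, an interferon-induced membrane protein, 0.57 ± 0.10, Nostrin, an endothelial trafficking protein, 0.67 ± 0.12, and B230311B06Rik 0.53 ± 0.10. Mir3473e, a microRNA locus, was at 0 CPM in each ZT2 library and at 0.163, 0.274 and 0.175 CPM at ZT14, and no fold is given. Among larger differences, Trem2, a lipid receptor of macrophages, had 1.55 ± 0.31, Cmklr1, the chemerin receptor, 0.93 ± 0.20, and Nudt22, a nucleotide-sugar hydrolase, -0.89 ± 0.19.

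Macrophage markers as a list did not follow Cd163 and Trem2. Of 17 measured, 8 were above 0 and the median was -0.05. Csf1r, the receptor that defines these cells, had 10.9, 8.88 and 8.40 CPM at ZT2 and 9.996, 10.7 and 8.88 CPM at ZT14 (0.07 ± 0.17). Myelinating Schwann cell markers had 11 of 17 above 0 and a median of 0.08. Prx (0.22 ± 0.08), Pllp (0.25 ± 0.10) and Fa2h (0.23 ± 0.08), all myelin genes, were the 3 at an unadjusted p under 0.05. All 3 were higher at ZT14 (17.6% of the list, against 2.9% of all genes). The times did not overlap for 7 of the 17, these 3 among them, all higher at ZT14, against 5.79% of all genes.

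ZT20 against ZT8 is the second pair of opposite times and shares no library with the first, so the difference between the 2 changes was tested gene by gene as (ZT14 minus ZT2) minus (ZT20 minus ZT8). It passed for 13 genes (0.0504%), with 1286 at an unadjusted p under 0.05 (4.98%). The test is arithmetically the same as ZT8 and ZT14 together against ZT20 and ZT2 together. Of the 13, 7 had also passed for ZT14 against ZT2: Fabp7, Arntl, Slco1a4, Fmo2, Per2, Spg21 and Sat1. The difference contains the change from ZT2 to ZT14 itself, so this overlap is partly built in and adds no separate evidence. From ZT8 to ZT20, Fmo2 had a log2 value of -0.18 ± 0.12 and Arntl 1.18 ± 0.11. Fabp7 had 322.1 ± 28.7 CPM at ZT8 against 455.1 ± 20.5 CPM at ZT20 (SD, n = 3), between its levels at the other times. Nr1d1, near 0 for ZT14 against ZT2, had a log2 value of -1.86 ± 0.19 for ZT20 against ZT8. For the other 5 of the 12 genes the difference was not past the threshold. Khk stands out among them: its mean was 34.9 ± 1.99 CPM at ZT8 against 36.2 ± 1.54 CPM at ZT20, both as high as at ZT14, so ZT2 alone was low (difference test, edgeR adjusted p = 0.199). Dbi had its values at ZT8 and ZT20 between those of ZT2 and ZT14, with 607.1 ± 24.4 CPM at the former and 568 ± 9.68 CPM at the latter (adjusted p = 0.534), and Fam107a likewise, at 18.9 ± 1.30 and 17.4 ± 2.50 CPM (adjusted p = 0.0896).

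**Figure D5:**
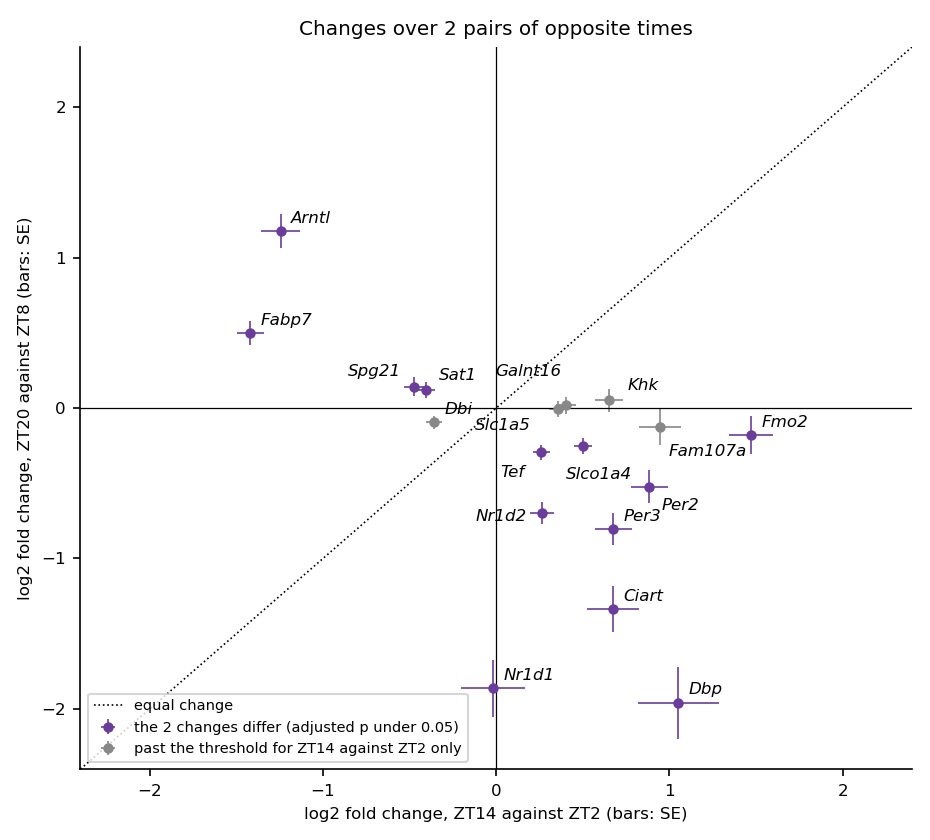
Each named gene is placed by its log2 fold change for ZT14 against ZT2 (horizontal) and for ZT20 against ZT8 (vertical), with standard errors as bars and a dotted line where both would be equal. The 13 genes in purple differ between the pairs of times: Arntl and Fabp7 lie at the upper left, and the repressor and output genes of the clock lie at the lower right, apart from Nr1d1 at -0.02 on the horizontal axis.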

How the data were processed

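Per the labels' protocols, frozen lumbar DRG gave total RNA, from which poly(A) RNA was enriched and copied with random primers, and both ends of each fragment were read for 150 bases. Per the submitters' processing notes, the authors used HISAT2 2.2.1 and StringTie 2.1.5 with GRCm38.p6. No source used here gives the role of each tool, the annotation release or the handling of strand, so overlapping genes on opposite strands may share values. The deposited table holds estimated counts that are not whole, on a coverage scale. Of 38942 rows, 348 assembled loci without a gene name were left out (0.203% to 0.231% of a library).

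Values were rounded and tested with edgeR 4.0.16 in R 4.3.3 (filterByExpr, TMM, robust quasi-likelihood fit, 4 time groups, 12 libraries, Benjamini-Hochberg adjustment, threshold 0.05); 12785 genes fell below the filter. CPM uses TMM-scaled totals, and errors of log2 values are SE. Gene symbols and positions are from GENCODE M21. DESeq2 1.42.0, limma 3.58.1, other scalings, filters, a muscle covariate and leave-one-out fits were alternatives. The fit was tested on simulated counts, in which 50 genes at a mean of 1 CPM or more changed at ZT14 by each fold. It recovered 14% of changes of 1.25-fold, 56% of 1.5-fold, 82% of 2-fold and 94% of 3-fold, with 8 false calls among 131. Members and the 46 gene lists were chosen with earlier results of these data known, so lists have counts and medians and no test. Named are the genes past either threshold, core clock genes, the member of each list with the lowest unadjusted p under 0.05 in each direction (otherwise its highest gene), the 15 genes next to the threshold, the 10 largest differences at a mean of 1 CPM and an unadjusted p under 0.001, and 8 nociceptor genes; further list members were named after their values were seen, and pseudogenes were not described.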

Additional observations from a re-analysis of the deposited data

Results flagged for a closer look

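For 13 genes the change from ZT2 to ZT14 differed from the change from ZT8 to ZT20 at an adjusted p under 0.05 in edgeR, and each is given as the log2 difference of the first change minus the second. Among clock genes of the repressor and output arm Dbp had 3.01 and Ciart 2.01, the receptor genes Nr1d1 and Nr1d2 had 1.84 and 0.96, the period genes Per2 and Per3 had 1.41 and 1.48, and Tef had 0.56. Arntl, the activator gene, had -2.42. Outside the clock it was -1.92 for Fabp7, the glial fatty acid-binding protein, 1.65 for Fmo2, the monooxygenase, 0.75 for Slco1a4, the barrier transporter, -0.61 for Spg21 and -0.52 for Sat1. Adjusted p-values ran from 4.3e-05 for Fabp7 to 0.0461 for Spg21, Sat1 and Nr1d1. With the library richest in muscle RNA left out at each time, 5 of these genes passed.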

How the results depend on the processing

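None of the 12 genes past the threshold changed sign in the 24 alternatives run. Among 92 named genes, 12 took both signs, all with an unadjusted p of 0.05 or more, among them Nr1d1 (-0.25 to 0.11) and Clock (-0.21 to 0.01). The medians of 25 of 46 lists did so too, among them satellite glia (-0.09 to 0.02), macrophages (-0.17 to 0.07), T, B and natural killer cells (-0.42 to 0.18), neutrophils (-0.34 to 0.26) and skeletal muscle (-0.27 to 0.32). The count of 12 genes for ZT14 against ZT2 became 107 with DESeq2 (69 higher, 38 lower, all 12 among them). It was 19 on approximate reads, all 12 among them, and 5 with a replicate block, each of these among the 12. With the 6 ZT2 and ZT14 libraries alone it was 6 (2 higher, 4 lower), and only 3 of these were among the 12. Without the 4 libraries richest in muscle RNA it was 0. With 1 library left out it ran from 3 to 13, where fewer libraries also estimate the spread. The count of 13 for the difference between the pairs of times became 81 with DESeq2, 5 without the 4 muscle-rich libraries and 8 with the replicate block, and ran from 9 to 16 with 1 library left out. Pairing by replicate number was not seen: the 3 same-numbered pairs of ZT2 and ZT14 had correlations of -0.005 to 0.017, and 3 of 12 libraries correlated best with their own number. These correlations ran over all genes tested, so a weak effect shared by same-numbered libraries could be missed. Over 24 alternatives, Fabp7, Fmo2 and Arntl passed in 23, Khk in 19, Slco1a4 in 18, Dbi and Per2 in 15, Fam107a in 14, Spg21 in 13, Sat1 in 10, Slc1a5 in 6 and Galnt16 in 4. The medians over these alternatives ran from 0.32 to 0.40 for the clock repressor arm, 0.19 to 0.26 for glucocorticoid-responsive genes, 0.14 to 0.17 for endothelium, -0.12 to -0.08 for the endoplasmic reticulum list and -0.39 to -0.11 for interferon-stimulated genes. Exact read depth is unknown, since the values are on a coverage scale.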

Other observations

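Lists outside the main comparisons gave these values for ZT14 against ZT2. Sterol and fatty acid synthesis genes had 21 of 25 above 0 with a median of 0.04. Of these, 2 had an unadjusted p under 0.05, both higher at ZT14 (8% of the list, against 2.9% of all genes). They were Insig1, the sterol-sensing regulator, at 106.4, 111.0 and 106.4 CPM at ZT2 and 122.6, 121.5 and 115.1 CPM at ZT14, and Nsdhl (0.09 ± 0.04). Among 20 amino acid transporters Slc1a5 passed, and Slc7a5 and the taurine transporter Slc6a6 (0.30 ± 0.10) had an unadjusted p under 0.05. All 3 were higher at ZT14 (15% of the list, against 2.9% of all genes). Of 16 T, B and natural killer cell markers 0 passed; Ighm, the heavy chain of IgM, had 69.9, 71.2 and 66.6 CPM at ZT2 and 80.6, 86.7 and 72.6 CPM at ZT14, while Cd3e, the T cell marker, lay at 0.239 to 0.679 CPM. Camp, a neutrophil granule gene, had 11.9, 6.17 and 6.97 CPM at ZT2 and 5.33, 6.05 and 5.61 CPM at ZT14 (-0.56 ± 0.25). ZT2 replicate 1 was the highest of its time for 16 of the 18 neutrophil and bone marrow markers, and without it Camp had -0.22. The 16 measured injury-induced neuron genes had a median of 0.09 and the 28 cytokines, chemokines and receptors -0.03, with 0 past the threshold in either. Nuclear respiratory chain genes (26, median 0.01), mitochondrially encoded genes (13, median 0.04) and cytoplasmic ribosomal proteins (30, median 0.03) had 0 members at an unadjusted p under 0.05.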
